A study of Mus musculus with 8 samples.

Results

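The genes of the proteasome, the protease complex that degrades ubiquitin-tagged proteins, were followed across 8 mouse embryonic stem cell (ESC) lines that differ in the zinc finger transcription factor gene Zfp281. Genes were taken by symbol, namely every Psma, Psmb, Psmc, Psmd, Psme, Psmf and Psmg gene that the array annotation names on a probe set of its own, without Psmc3ip, a recombination factor that only shares the letters. This gave 48 genes of 18193 measured. Psme2, whose only probe set also names Psme2b, is not among them, and Psme3ip1, which encodes a protein that binds the activator Psme3, is.

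There were 3 Zfp281 null lines (7, 3.34 and 3.38, labelled deficient), 2 heterozygous lines (5 and 3.1) and 3 wild-type lines (3, 3.2 and 3.3), each on 1 Affymetrix mouse genome array. All lines came from outgrowths of blastocysts of heterozygous matings. In the mutant allele both exons of the gene had been replaced by a floxed neomycin resistance cassette, and the study describes null alleles with and without this cassette. The lines were kept on primary mouse embryonic fibroblast feeder cells with leukemia inhibitory factor (LIF), without further treatment. Each line is 1 derivation with 1 array, so the spread within a genotype holds the differences between lines as well as technical error. In bulk RNA of this kind fewer cells of a type and less RNA per cell cannot be told apart.

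The proteasome core, called 20S, is a barrel of stacked rings. The outer alpha rings gate the entrance and the inner beta rings hold the proteolytic sites. The 19S regulatory particle caps the barrel. Its ATPases unfold the substrate, and some of its other subunits bind or remove ubiquitin. Dedicated chaperones assemble both parts, and other caps of the PA28 and PA200 families can take the place of 19S. Interferon-induced beta subunits form the immunoproteasome. When proteasome activity falls short, the transcription factor Nfe2l1 is known to raise the subunit genes together through antioxidant response elements in their promoters.

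Promoters are printed here because the members are known to be regulated together through promoter elements. Of the 48 genes, 40 were matched by symbol to a RefSeq promoter of the GRCm38.p6 assembly (43 promoters, from 250 bases before to 50 bases after the start). Those not matched were Psma8, Psmb1, Psmb2, Psmb7, Psmc3, Psmd3, Psmd7 and Psmg2. The 150 bases before the start are shown 5′ to 3′ on the gene's strand, with 1 motif match in capitals. Psmd13 and Psmd8 had large differences between null and wild-type lines and carry the ETS-type core GGAAGT, which reads ACTTCC where it lies on the other strand. Psmb5 has the antioxidant response type TGACNNNGC. Psma3, with a slightly lower mean in null lines (log2 fold change −0.24), has CCAAT. Psmc6, whose level barely differed, has CCCCTCCC, a stretch of the G-rich sequence that Zfp281 family proteins bind.
Psmd13, chr7:140882244-140882393, + strand: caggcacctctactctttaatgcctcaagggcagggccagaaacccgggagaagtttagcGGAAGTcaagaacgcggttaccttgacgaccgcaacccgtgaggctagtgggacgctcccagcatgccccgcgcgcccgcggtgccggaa
Psmd8, chr7:29180674-29180823, - strand: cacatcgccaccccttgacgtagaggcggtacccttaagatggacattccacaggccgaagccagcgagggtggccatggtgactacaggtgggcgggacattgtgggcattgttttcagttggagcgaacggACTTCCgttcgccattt
Psmb5, chr14:54617996-54618145, - strand: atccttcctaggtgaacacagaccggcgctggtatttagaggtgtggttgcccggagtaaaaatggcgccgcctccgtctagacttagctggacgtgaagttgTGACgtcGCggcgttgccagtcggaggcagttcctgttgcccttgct
Psma3, chr12:70974473-70974622, + strand: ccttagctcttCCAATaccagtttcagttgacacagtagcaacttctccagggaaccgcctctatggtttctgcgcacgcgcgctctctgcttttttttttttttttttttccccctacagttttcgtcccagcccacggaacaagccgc
Psmc6, chr14:45329674-45329823, + strand: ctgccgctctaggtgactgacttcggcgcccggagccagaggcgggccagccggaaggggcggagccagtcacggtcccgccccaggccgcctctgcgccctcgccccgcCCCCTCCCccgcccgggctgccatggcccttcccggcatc

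The 4 motifs were searched on both strands of the whole 300-base window, and none of them contains another. GGAAGT was found in 20 of the 43 member promoters (46.5%), and in 23.8% of all 32851 promoters. CCAAT was found in 15 (34.9%, and 37.4% of all promoters), TGACNNNGC in 6 (14%, and 12.4% of all) and CCCCTCCC in 3 (6.98%, and 12.2% of all). Of the 9 members that were over 2-fold higher in null than in wild-type lines, 7 had a promoter, of which 5 held GGAAGT (Psmb4, Psmc5, Psmd8, Psmd13 and Psmg3), 1 held TGACNNNGC (Psmb5) and 0 held CCAAT or CCCCTCCC. Each of the 4 motifs lay in promoters of members with a higher mean in null lines and of members with a lower one. A match describes letters in this window only.

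The values are log2 array values, each for the probe set (a group of short probes for 1 transcript) with the highest mean over all arrays, and they are not compared between genes. The Affymetrix detection call on these probe sets was present in all 8 lines for 39 members, in some of the lines for 3 (Psmd8, Psmd9 and Psmg3), and in none for 6 (Psmb8, Psmb9, Psmb10, Psmb11, Psmd7 and Psmf1). Zfp281 itself had log2 values of 3.64, 5.06 and 5.23 in null lines 7, 3.34 and 3.38, 6.69 and 6.97 in heterozygous lines, against 6.88, 7.93 and 6.72 in wild-type lines, a log2 fold change of −2.54 (adjusted p = 0.0467 from limma). All null lines were the lowest, yet the probe set was called present in 2 of the 3, and where it lies relative to the replaced exons was not examined. Of 12 ESC markers, 11 were called present in every line. The 20 feeder fibroblast markers were called present for 13 to 17 genes in null lines, 15 to 18 in heterozygous lines and 12 to 19 in wild-type lines, and their mean log2 value was 6.26 to 6.41 in null, 6.54 to 7.05 in heterozygous and 6.38 to 6.94 in wild-type lines. The 3′ minus 5′ difference, taken as the mean over control probe sets for Gapdh and for beta-actin and a measure of how far the labelled RNA reaches from its 3′ end, was 2.68 to 3.71 in null lines, 4.49 to 4.80 in heterozygous lines and 4.23 to 4.86 in wild-type lines. The 3 null arrays thus stood apart from all others in this measure, and 79.1% of its variance lay between genotypes.

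In null ESCs most proteasome genes had higher values than in wild-type ESCs, with the largest differences in the beta ring and in single subunits of the regulatory particle. The mean was higher in 41 of 48 members, against 46.8% of all genes. Every null line lay above every wild-type line in 25 members (52.1%, against 11.1% of all genes), and every null line lay below in 1, Psma3 (2.08%, against 11.2%). The median log2 fold change over the members was 0.48, and −0.01 over all genes. Over 2-fold higher were 9 members (18.8%, against 1.37% of all genes), and 0 were over 2-fold lower (1.1% of all genes). Among genes called present in all lines, 7 of 39 members were over 2-fold higher (17.9%), against 2.91% of 5296 genes, and 22 members did not overlap upward (56.4%), against 16.9%.

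After adjustment over all genes with limma, 1 member rose (Psmd13, against 0.693% of all genes) and 0 fell (0.44% of all genes). Before adjustment, 26 members had a p under 0.05 with a higher mean, against 8.67% of all genes, and 0 members had one with a lower mean, against 7.71% of all genes. By the study's account null line 7 and wild-type line 3, and null line 3.38 and wild-type line 3.3, come from the same litters. With these litters as a random block in limma 4 members were called (Psmb2, Psmb4, Psmc5 and Psmd13), against 1.58% of all genes. With the litter as a fixed block in these 4 lines alone 0 were, against 0.978% of all genes. With this 3′ minus 5′ measure as a covariate in the fit, the member median was 0.20, 0 members passed and the median standard error (SE) over the members was 0.36, against 0.19 without it. Since the measure itself differs by genotype, its part and that of the genotype cannot be told apart with these lines.

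**Figure D1:**
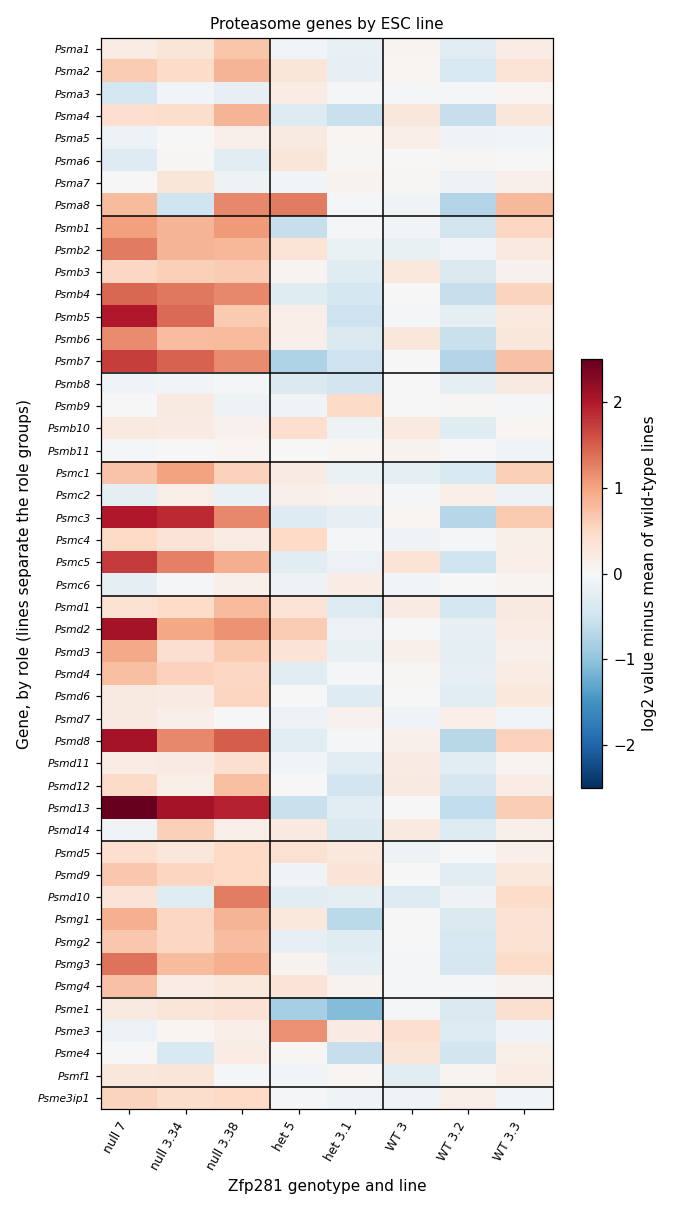
Log2 value of each of the 48 proteasome genes (rows, by role) in each ESC line (columns, null, heterozygous and wild-type), minus the gene's mean over the 3 wild-type lines. The beta ring rows and single rows such as Psmd13, Psmc3 and Psmd8 are red in all 3 null lines, and most other rows are pale.

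On the probe sets used, all 7 constitutive genes of the beta ring had every null line above every wild-type line (100%, against 11.1% of all genes). Their log2 fold changes lay between 0.59 and 1.46, with a median of 0.99. None passed after adjustment in limma (adjusted p between 0.0507 and 0.139), and all 7 had an unadjusted p under 0.05. Its 3 proteolytic subunits are Psmb5, Psmb6 and Psmb7.

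Psmb5, the chymotrypsin-like subunit, had log2 values of 9.26, 8.65 and 7.90 in null lines 7, 3.34 and 3.38, 7.41 and 6.72 in heterozygous lines 5 and 3.1, against 7.22, 7.03 and 7.49 in wild-type lines 3, 3.2 and 3.3. The 3 null lines spread widely, and the lowest of them, 3.38, was still above the highest wild-type line. The log2 fold change was 1.36 (SE 0.33, limma adjusted p = 0.0862), and 0.20 with the covariate. Psmb7, the trypsin-like subunit, had 11.01, 10.74 and 10.46 in null lines, 8.50 and 8.76 in heterozygous lines, against 9.27, 8.55 and 10.01 in wild-type lines. Null and wild-type lines did not overlap, although wild-type line 3.3 came near the null lines. The log2 fold change was 1.46 (SE 0.33, limma adjusted p = 0.0729). Psmb6, the caspase-like subunit, had 9.37, 8.95 and 8.99 in null lines, 8.30 and 7.83 in heterozygous lines, against 8.46, 7.62 and 8.48 in wild-type lines. Here too all null lines were the highest, with a log2 fold change of 0.92 (SE 0.25, limma adjusted p = 0.113).

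The other beta subunits hold no proteolytic site and complete the ring. Psmb4 had log2 values of 10.36, 10.23 and 10.11 in null lines, 8.61 and 8.48 in heterozygous lines, against 8.93, 8.35 and 9.47 in wild-type lines. The null lines were tight and the wild-type lines were not, and the log2 fold change of 1.32 (SE 0.25) came closest of the ring to passing (adjusted p = 0.0507 from limma). Psmb3, the member of the ring with the smallest difference on the probe set used, had 9.93, 10.01 and 10.06 in null lines, 9.48 and 9.11 in heterozygous lines, against 9.67, 9.05 and 9.52 in wild-type lines, a log2 fold change of 0.59. Psmb1 had 10.07, 9.90 and 10.10 in null lines, 8.46 and 8.99 in heterozygous lines, against 8.97, 8.59 and 9.56 in wild-type lines, with all null lines the highest and a log2 fold change of 0.98. Psmb2 stood at 0.99. The other probe sets of Psmb1 and Psmb3 gave other values, as described with the probe sets.

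The inducible counterparts were not detected. Psmb8, which replaces Psmb5 in the immunoproteasome, was called present in 0 lines, with log2 values of 4.12, 4.14 and 4.18 in null lines, 3.84 and 3.72 in heterozygous lines, against 4.21, 3.98 and 4.43 in wild-type lines. Psmb9, which replaces Psmb6, had 4.84, 5.07 and 4.72 in null lines, 4.74 and 5.32 in heterozygous lines, against 4.86, 4.87 and 4.82 in wild-type lines, again with 0 present calls. Psmb10, which replaces Psmb7, had 4.06, 4.03 and 3.93 in null lines, 4.23 and 3.68 in heterozygous lines, against 4.07, 3.52 and 3.87 in wild-type lines. Null and wild-type values overlapped in all 3 genes, and none was called present. The thymic subunit Psmb11, known from cortical epithelium, was not called present either, with all values between 3.20 and 3.39.

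On the probe sets used, the alpha ring differed little. Other sets of Psma5, Psma6 and Psma7 gave higher values, as described with the probe sets. Of the 8 genes of the ring, 2 had every null line above every wild-type line (Psma2 and Psma4, 25%, against 11.1% of all genes). Psma3 was the 1 with every null line below (12.5%, near the 11.2% of all genes). The median log2 fold change was 0.22, and none passed in limma (adjusted p of at least 0.169, with 3 at an unadjusted p under 0.05).

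Psma2 had the highest fold change of the ring, with log2 values of 10.49, 10.32 and 10.70 in null lines, 10.15 and 9.65 in heterozygous lines, against 9.90, 9.47 and 10.20 in wild-type lines. Null line 3.34 lay only just above wild-type line 3.3. The log2 fold change was 0.65 (SE 0.21, limma adjusted p = 0.169). Psma4 had 10.93, 10.95 and 11.36 in null lines, 10.17 and 9.96 in heterozygous lines, against 10.79, 9.94 and 10.80 in wild-type lines, with a log2 fold change of 0.57. Psma3 had 10.22, 10.58 and 10.45 in null lines, 10.84 and 10.63 in heterozygous lines, against 10.62, 10.63 and 10.71 in wild-type lines. All null lines were the low ones, at a log2 fold change of −0.24 (SE 0.12, limma adjusted p = 0.401). Psma1, Psma5, Psma6 and Psma7 overlapped between null and wild-type lines, with log2 fold changes from −0.19 to 0.39. Psma8, the alpha subunit of the testis proteasome, had the widest spread of the members within each genotype, from 5.22 to 6.93 in null, 5.68 to 7.01 in heterozygous and 4.99 to 6.52 in wild-type lines.

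**Figure D2:**
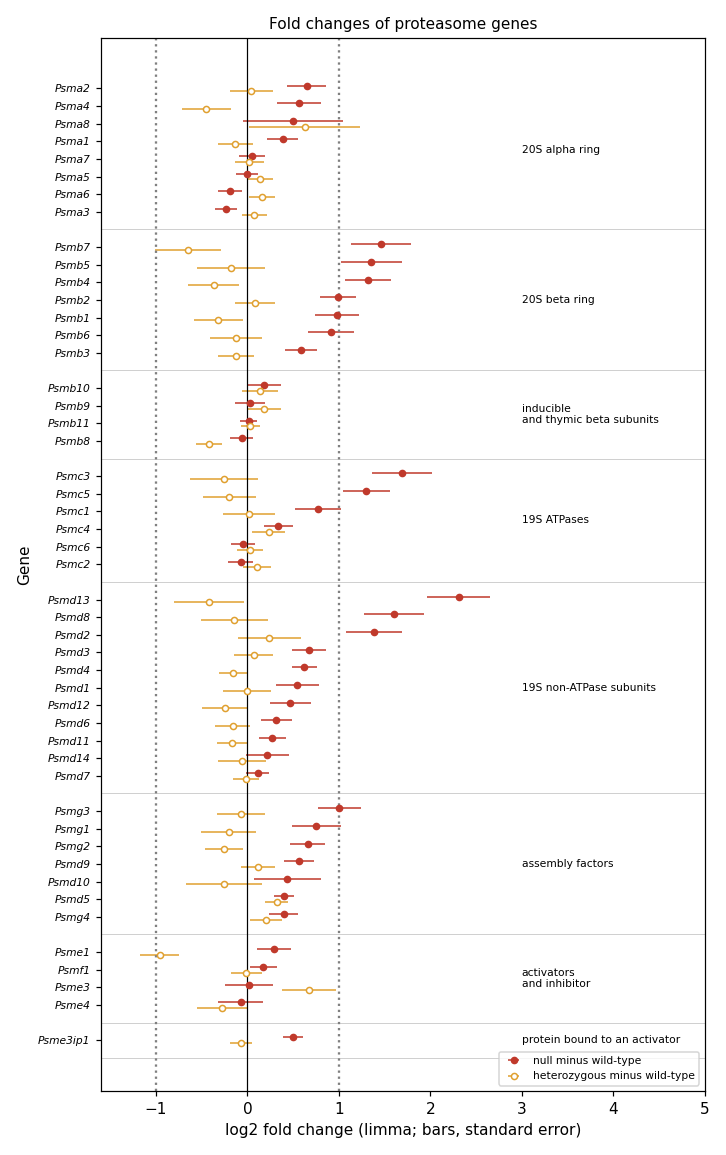
Log2 fold change from limma of each proteasome gene, the 6 never called present included, by role and in order within a role, for null against wild-type lines (filled) and heterozygous against wild-type lines (open), with the standard error as bars and dotted lines at a 2-fold difference. The filled points reach 2.31 for Psmd13 and lie right of 0 for all beta ring, non-ATPase and assembly genes, whereas the open points lie between −0.96 (Psme1) and 0.67 (Psme3).

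The 19S ATPases were split. Psmc3 and Psmc5 were over 2-fold higher in null lines, Psmc1 overlapped at a log2 fold change of 0.77, Psmc4 did not overlap at 0.34, and Psmc2 and Psmc6 were near 0. The median was 0.55, and 0 of 6 passed in limma (3 at an unadjusted p under 0.05).

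Psmc3 had log2 values of 7.82, 7.68 and 7.01 in null lines, 5.50 and 5.61 in heterozygous lines, against 5.87, 5.11 and 6.46 in wild-type lines. All null lines were above all others, and the log2 fold change was 1.69 (SE 0.33, limma adjusted p = 0.0565). Psmc5 had 8.33, 7.84 and 7.50 in null lines, 6.33 and 6.45 in heterozygous lines, against 6.93, 6.09 and 6.74 in wild-type lines. Again all null lines were the highest, with a log2 fold change of 1.30 (SE 0.26, limma adjusted p = 0.0568). Psmc2, the ATPase with the lowest fold change, had 10.32, 10.73 and 10.40 in null lines, 10.69 and 10.64 in heterozygous lines, against 10.53, 10.72 and 10.43 in wild-type lines, with full overlap and a log2 fold change of −0.07. Its second probe set gave another answer, as described with the probe sets.

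All 11 non-ATPase subunits of the regulatory particle had a higher mean in null lines, Psmd7 among them on a probe set never called present. Of the 11, 6 did not overlap with wild-type lines (54.5%, against 11.1% of all genes). Psmd13, a scaffold subunit of the lid, was the 1 member that rose. It had log2 values of 7.76, 6.93 and 6.77 in null lines, 4.28 and 4.56 in heterozygous lines, against 4.83, 4.23 and 5.47 in wild-type lines. The lowest null line thus lay 1 unit or more above every other line. The log2 fold change was 2.31 (SE 0.34, limma adjusted p = 0.0370), a 4.96-fold difference, and 1.07 with the covariate (SE 0.49). The call was lost without null line 7 (adjusted p = 0.128), wild-type line 3 (0.113) or wild-type line 3.2 (0.0833, all from limma).

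Psmd8, a lid subunit, had 8.21, 7.33 and 7.63 in null lines, 5.87 and 6.09 in heterozygous lines, against 6.25, 5.43 and 6.69 in wild-type lines. It was called present in all 3 null lines, 1 heterozygous and 2 wild-type lines, with a log2 fold change of 1.60 (SE 0.33, limma adjusted p = 0.0613). Psmd2, which with Psmd1 forms the docking platform of the base, had 8.39, 7.27 and 7.43 in null lines, 6.94 and 6.17 in heterozygous lines, against 6.33, 6.11 and 6.51 in wild-type lines. Null line 7 was well above the other null lines, and the log2 fold change of 1.38 (SE 0.31, limma adjusted p = 0.0729) became 0.07 with the covariate. Among the others, Psmd3 (0.68), the ubiquitin receptor Psmd4 (0.62) and Psmd1 (0.55) did not overlap, whereas Psmd6, Psmd11, Psmd12 and the deubiquitinating enzyme Psmd14 did, at log2 fold changes between 0.22 and 0.47. The probe set that stood for Psmd7, the partner of Psmd14, was called present in 0 lines, with values of 5.51, 5.41 and 5.26 in null lines, 5.14 and 5.39 in heterozygous lines, against 5.20, 5.44 and 5.20 in wild-type lines.

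**Figure D3:**
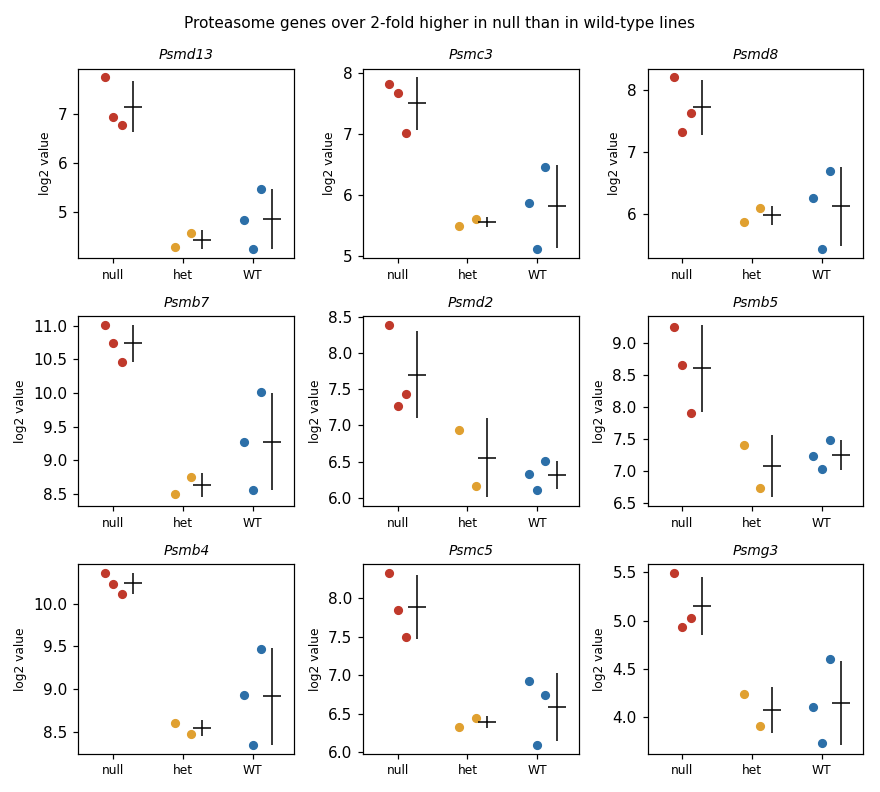
Log2 value (vertical axis) of the 9 proteasome genes over 2-fold higher in null than in wild-type lines, with 1 point for each line, the mean as a horizontal bar and the SD as a vertical bar. In each panel the 3 null lines lie above all wild-type and heterozygous lines, and the wild-type lines of Psmb7 and Psmb4 reach up to 10.01 and 9.47.

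The assembly factors also had higher values. All 7 had a higher mean in null lines. Of them 6 did not overlap with wild-type lines (85.7%, against 11.1% of all genes), the exception being Psmd10 (gankyrin). Psmg3, a chaperone of core assembly, had log2 values of 5.49, 4.93 and 5.03 in null lines, 4.24 and 3.91 in heterozygous lines, against 4.11, 3.73 and 4.60 in wild-type lines. It was present in only 1 null line and 1 wild-type line, with a log2 fold change of 1.01 (SE 0.24, limma adjusted p = 0.0820). Psmg4, its partner, had 6.84, 6.29 and 6.37 in null lines, 6.44 and 6.18 in heterozygous lines, against 6.05, 6.08 and 6.18 in wild-type lines, a log2 fold change of 0.40 that turned to −0.22 with the covariate. The chaperone pair of the alpha ring, Psmg1 and Psmg2, stood at 0.76 and 0.66, and the base chaperones Psmd9 and Psmd5 at 0.56 and 0.40. None passed in limma (adjusted p of at least 0.0820, with 6 at an unadjusted p under 0.05).

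On the probe sets used, the alternative caps and the inhibitor overlapped between null and wild-type lines. Psme1, the interferon-induced alpha subunit of PA28, had log2 values of 7.27, 7.35 and 7.42 in null lines, 6.22 and 5.96 in heterozygous lines, against 7.01, 6.68 and 7.46 in wild-type lines. The heterozygous lines were the low ones here, and the log2 fold change of null against wild-type lines was 0.29. Psme4, known as PA200, had 9.05, 8.68 and 9.24 in null lines, 9.09 and 8.48 in heterozygous lines, against 9.37, 8.60 and 9.22 in wild-type lines, and a log2 fold change of −0.07. The nuclear cap Psme3 stood at 0.02, and Psmf1, the inhibitor, was not called present on the probe set used. The probe set of Psmf1 with the most present calls had a log2 fold change of −0.47. Psme3ip1 had 7.51, 7.40 and 7.46 in null lines, 6.92 and 6.85 in heterozygous lines, against 6.86, 7.13 and 6.89 in wild-type lines. All null lines were above all others, with a log2 fold change of 0.50 (SE 0.11, limma adjusted p = 0.0686), and 0.44 with the covariate.

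With the covariate the beta ring kept the highest median of the role groups with more than 1 gene, at 0.54, with all 7 genes between 0.20 and 0.70. The ATPases had a median of 0.31, the non-ATPase subunits 0.30, the alpha ring 0.18, and the assembly factors 0.07. All of these are fold changes of null against wild-type lines, and none passed in limma. Measured from each gene's mean over 8 lines, the member median was 0.25 to 0.38 in null, −0.39 to −0.12 in heterozygous and −0.43 to 0.02 in wild-type lines. Within a genotype the lines also differed as a block. Wild-type line 3.2 was the lowest of its genotype in 34 of 48 members and line 3.3 the highest in 32, and heterozygous line 3.1 was the lower in 33.

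**Figure D4:**
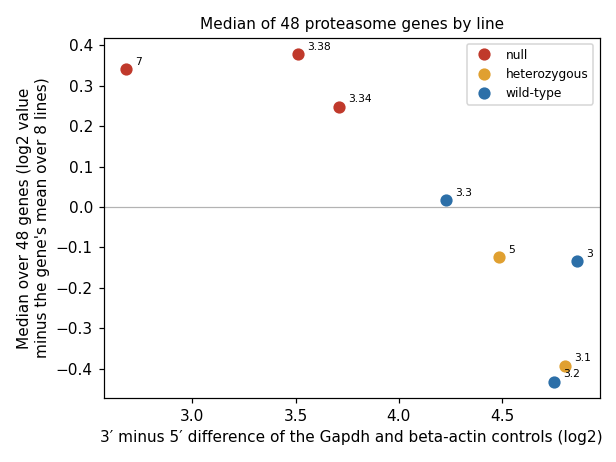
Median over the 48 proteasome genes of the log2 value minus the gene's mean over 8 lines (vertical axis) against the 3′ minus 5′ measure from the Gapdh and beta-actin controls (horizontal axis, log2), with 1 point for each line. The 3 null lines sit at 2.68 to 3.71 with medians of 0.25 to 0.38, and no line of another genotype has so small a difference or so high a median.

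Several members are measured by more than 1 probe set, and these did not always give the same answer. The 48 genes had 101 probe sets, from 1 (22 genes) to 8 (Psmd11). In 14 genes at least 2 of them were called present in all lines. Their log2 fold changes of null against wild-type lines spread over more than 0.5 in 10 of the 14 genes and over more than 1 in 3, and had both signs in 7.

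Psmd13 had the widest spread. Beside the probe set described above, a second one present in all lines had log2 values of 4.12, 3.95 and 3.98 in null lines, 4.04 and 3.97 in heterozygous lines, against 4.59, 4.29 and 4.63 in wild-type lines, a log2 fold change of −0.49. On it the null lines were the low ones together with the heterozygous lines. One more, present in 5 lines, had a log2 fold change of 1.46. With the mean of its 4 probe sets Psmd13 stood at 0.94 (adjusted p = 0.0734 from limma) and was no longer called. For Psmd11, whose highest probe set gave 0.27, the 4 probe sets present in all lines ran from −0.40 to 1.61. For Psmc2 the second probe set had 8.41, 8.35 and 8.31 in null lines, 7.62 and 7.38 in heterozygous lines, against 7.73, 7.50 and 7.79 in wild-type lines, without overlap and with a log2 fold change of 0.68 (limma adjusted p = 0.0488 across single probe sets), against −0.07 for the one used. Psmb1 had a spread of 1.04. Its second probe set present in all lines had 6.86, 6.83 and 7.07 in null lines, 7.29 and 6.77 in heterozygous lines, against 7.14, 6.79 and 7.03 in wild-type lines, with full overlap and a log2 fold change of −0.07, against 0.98 for the one used. Psmb4 (0.39 and 1.32), Psmc4 (0.34 and 0.99), Psme3 (0.02 and 0.69), Psma7 (0.05 and 0.64), Psma6 (−0.19 and 0.41) and Psma5 (−0.006 and 0.41) also had a pair of differing sets.

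Psmb3 and Psmd7 also depend on the probe set. The second set of Psmb3, called present in all 3 null lines and 1 wild-type line, had log2 values of 8.33, 7.06 and 7.07 in null lines, 5.31 and 4.92 in heterozygous lines, against 5.34, 4.80 and 5.45 in wild-type lines. All null lines were above all others, with a log2 fold change of 2.29 (SE 0.34, limma adjusted p = 0.0405 across single probe sets), against 0.59 for the set used. With the mean of both sets Psmb3 stood at 1.44 (adjusted p = 0.0446 from limma) and was the 1 member called in that fit (0.759% of all genes). The highest probe set of Psmd7 was never called present, and another one, present in 7 lines, had log2 values of 6.17, 5.47 and 5.69 in null lines, 3.51 and 4.08 in heterozygous lines, against 4.17, 3.63 and 4.39 in wild-type lines. There the null lines stood 1 unit or more above the rest, with a log2 fold change of 1.72 (SE 0.25, limma adjusted p = 0.0405 across single probe sets). Affymetrix marks probe sets that match several transcripts of 1 gene with a in their name, and those that may match several genes with s or x. Of the member probe sets present in all lines, the 33 without such a mark had a median log2 fold change of 0.57, with 30 higher in null lines, and the 24 with a mark had a median of 0.30, with 16 higher. On the sets marked s or x, signal from pseudogenes or related genes cannot be told apart from that of the gene itself.

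**Figure D5:**
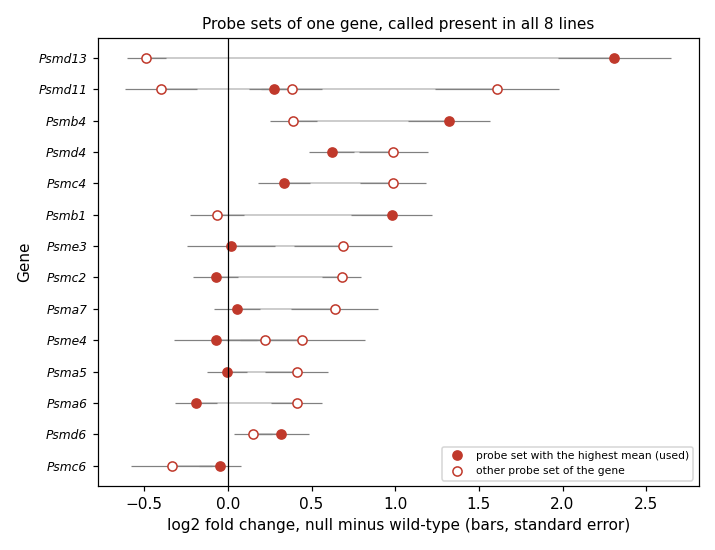
Log2 fold change of null against wild-type lines (horizontal axis, bars are standard errors) for every probe set called present in all 8 lines, in the 14 proteasome genes with at least 2 such probe sets. The filled point is the probe set that stands for the gene, and the pairs lie furthest apart for Psmd13 (−0.49 and 2.31) and Psmd11 (−0.40 to 1.61).

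In heterozygous ESCs the median log2 fold change of the proteasome genes against wild-type lines was −0.07, and 0.01 over all genes. Leaving out each line moved it over −0.22 to 0.03, and the lowest value came without wild-type line 3.2. There 6 members had an unadjusted p under 0.05 with a lower mean and 2 were over 2-fold lower (Psmb7 and Psme1). In that fit 0 were called in limma (0.0% of all genes). The shares of all genes at the other 2 levels were not taken, so whether those 2 counts exceed them cannot be said. With all 8 lines, no member passed in limma (0.0% of all genes were called, and the lowest adjusted p of a member was 0.997). In that fit of all lines 0 were past 2-fold in either direction (0.126% of all genes higher and 0.209% lower). Before adjustment, 1 member had a p under 0.05 with a higher mean (Psmd5, against 1.67% of all genes) and 2 with a lower mean (Psme1 and Psmb8, against 2.18%). Both heterozygous lines lay above all wild-type lines in 2 members, Psmd5 and Psmg4 (8.44% of all genes), and below in 2, Psme1 and Psmb8 (8.83% of all genes). Psme1 had the lowest fold change, −0.96 (SE 0.21), with both heterozygous lines under the lowest wild-type line. Psme3 had the highest, 0.67 (SE 0.30), and its heterozygous values of 7.49 and 6.55 overlapped the wild-type values of 6.77, 6.00 and 6.27.

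Null against heterozygous lines uses the null arrays of the first comparison and is no separate evidence on them. Its median log2 fold change was 0.56 (−0.02 over all genes). Over 2-fold higher in null lines were 13 members (27.1%, against 1.76% of all genes) and 0 were over 2-fold lower (0.66% of all genes), with 0 called in limma (0.0% of all genes, lowest adjusted p = 0.0566). Before adjustment, 28 members had a p under 0.05 with a higher mean (7.65% of all genes) and 1 with a lower mean (6.16% of all genes). The 13 were the 9 named above with Psma4 (1.01), Psmb1 (1.30), Psmb6 (1.04) and Psme1 (1.25, adjusted p = 0.0628 from limma), and Psmg3 was among them without a present call in either heterozygous line. Psmd13 was at 2.73, Psmb7 at 2.11 and Psmc3 at 1.95. Every null line lay above both heterozygous lines in 29 members (60.4%, against 13.3% of all genes), and below in 2, Psma3 and Psme3 (14.5% of all genes).

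Other genes of the pathway were taken from lists of known factors. Of 12 proteasome factors with names outside the Psm series, 0 passed in limma between null and wild-type lines (2 higher and 1 lower at an unadjusted p under 0.05, against 8.67% and 7.71% of all genes), and the median log2 fold change was −0.11. The core assembly factor Pomp was the highest of them at 0.81 (SE 0.22, limma adjusted p = 0.111). It had log2 values of 10.05, 9.80 and 9.71 in null lines, 8.58 and 8.66 in heterozygous lines, against 8.98, 8.60 and 9.55 in wild-type lines, and its null lines did not overlap with the others. Zfand5 was the lowest at −0.66 (SE 0.21, limma adjusted p = 0.155). Every null line lay below every wild-type line in Zfand5 and Akirin2, and above in Pomp and Ube3c (16.7% each, against 11.2% and 11.1% of all genes). Of 14 genes of ubiquitin delivery and of the Nfe2l1 axis 0 passed (4 higher and 0 lower before adjustment, against 8.67% and 7.71% of all genes), with a median log2 fold change of 0.13. Nfe2l1 itself was at 0.06 (adjusted p = 0.931 from limma), and the unfolding ATPase Vcp at 0.67 (adjusted p = 0.15 from limma).

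Among 17 genes of antigen processing and interferon response, 1 fell (5.88%, against 0.44% of all genes) and 0 rose (0.693% of all genes), and the median was −0.17. Gbp2, an interferon-induced guanylate-binding protein measured on a probe set marked x, had log2 values of 3.97, 4.57 and 4.63 in null lines, 4.70 and 3.99 in heterozygous lines, against 6.51, 5.93 and 6.40 in wild-type lines. Both mutant genotypes were low, and the log2 fold change of null against wild-type lines was −1.89 (SE 0.25, limma adjusted p = 0.0301). B2m, the light chain of class I molecules, had log2 values of 7.84, 7.86 and 8.45 in null lines, 9.59 and 9.29 in heterozygous lines, against 8.80, 9.84 and 8.84 in wild-type lines, a log2 fold change of −1.11 (adjusted p = 0.104 from limma). Without null line 7, or wild-type lines 3 or 3.2, 0 genes of these lists were called in limma. The feeder markers had a median log2 fold change of −0.44 with 0 of 20 called in limma (4 lower before adjustment, 20% against 7.71% of all genes). The 12 ESC markers had a median log2 fold change of 0.63, above the 0.48 of the proteasome genes, with a higher mean in null lines in 11. Of them 2 rose (16.7%, against 0.693% of all genes), Dppa5a (1.23) and Gdf3 (1.16), 8 had an unadjusted p under 0.05 with a higher mean (66.7%, against 8.67%), and 4 were over 2-fold higher, with Klf4 at 1.48 and Pou5f1 at 1.29. The part of feeder cells and of the ESC share in the proteasome values was not tested.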

How the data were processed

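Total RNA of 8 mouse ESC lines had been hybridised to 1 Affymetrix mouse genome array each. The authors ran RMA over all arrays at once and deposited the log2 values of each probe set. Per the file headers, they also deposited 1 table per array of Affymetrix intensity values (a linear signal) with detection calls and detection p-values. RMA and limma are the tools named by the methods and the submitters' processing notes. Tool versions and the scaling of the intensity: not given in the sources used here. All 8 log2 columns matched the intensities of their own array best. Array values have no read depth, and the number of lines limits their precision.

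Of 45101 probe sets, 64 controls were left out. The platform annotation names 1 gene for 34945 probe sets, several for 932 and none for 9160, and only the first were used. For each of 18193 genes the probe set highest on average over the arrays was taken. Genotypes were compared with limma 3.58.1 under R 4.3.3 (functions lmFit and eBayes, a mean for each genotype, all 8 arrays), with Benjamini-Hochberg adjustment over all genes. Called means an adjusted p under 0.05, and over 2-fold means a log2 fold change over 1, the threshold of the methods. The fits were tested on simulated data. With the covariate, the 3′ minus 5′ measure from the Gapdh and beta-actin controls entered the same fit. The labels share no replicate numbers between genotypes, but the study's supplement names 2 pairs of null and wild-type lines (7 with 3, and 3.38 with 3.3) from shared litters. Deviations of paired lines from their genotype means correlated at 0.10 and 0.04 over all genes. The litter entered limma as a random block (duplicateCorrelation, consensus correlation 0.094) or as a fixed block. The p-values are 2-sided and come from the moderated t-test of limma for a difference between genotypes. The spread it uses is that between lines of 1 array each, pooled over the 3 genotypes and moderated over all genes. Tables and figures were made with Python 3.11.15, numpy 2.4.6, pandas 2.3.3 and matplotlib 3.10.9.

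Full values are given for members called or past 2-fold in any comparison, for the proteolytic subunits and their inducible counterparts, and for the highest and lowest fold change of each role. The genes, lists and tests were chosen with earlier results of these data known. Second probe sets, Pomp, Zfand5, Akirin2 and Ube3c were described after their values were seen.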

Additional observations from a re-analysis of the deposited data

How the results depend on the processing

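The count of members called between null and wild-type lines was 1 (Psmd13), against 1.13% of all genes. It was 4 with each probe set by itself (of 101, where 0.919% of 34945 probe sets were called). Among detected genes only, called present in all lines of at least 1 genotype, it was 9 (of 41, where 6.05% of 7306 genes were called). Psmd8, among the 9, and Psmd9 passed this filter through the null lines alone, where their values are high. A trend and robust fit gave 5 (1.23% of all genes). The probe set of most present calls, an alternative chosen after seeing the data, gave 3 (1.24%). With the array signal values or the covariate it was 0 (0.159% and 0.0%). With the mean of the probe sets the 1 member called was Psmb3 (0.759%). With the litter as a block, also chosen after seeing the data, the count was 4 for a random replicate block over all lines (1.58%). It was 0 for a fixed replicate block in the 4 lines of known litters (0.978%, 1 residual degree of freedom). There Psmd13 had 2.11 (adjusted p = 0.0785 from limma). Leaving out each null or wild-type line gave 0 to 7. The count was 0 without null line 7 or wild-type lines 3 or 3.2 (0.0165%, 0.0110% and 0.0220% of all genes). Without null line 3.38 it was 2 (1.00%), and without wild-type line 3.3 it was 7 (1.14%). Between null and heterozygous lines 0 were called (0.0% of all genes). Among detected genes 7 were called (2.27%), Psmd8 again among them. With these 2 genotypes only 5 were called (0.528%), and with the trend and robust fit 1 (0.236%). Leaving out each null or wild-type line gave 0 to 12. The 12 came without wild-type line 3.2 (1.90% of all genes), and 6 were called without 3.3 (0.665%). Between heterozygous and wild-type lines 0 were called in any alternative run. The median of null against wild-type lines (0.48) was 0.22 over single probe sets and 0.20 with the covariate, and that of null against heterozygous lines (0.56) was 0.21 and 0.19. The count past 2-fold (9) was 2 with the covariate, Psmd13 higher and Psma8 lower, and 6 to 13 in the others. Of the other pathway genes (1 called) 2 passed over single probe sets, 0 with the signal values or the covariate, and 0 to 2 when each line was left out.

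Directions turned for several fold changes of null lines. Psmc2 was 0.21 and Psme4 0.086 with the mean of the probe sets. With the covariate, Psmc2 was 0.29, Psme1 −0.0070 and Psmg4 −0.22. Psma8 went from 0.50 to −1.12 with it, and Psmd2 against heterozygous lines went from 1.14 to −0.21. The mean was higher in null than in wild-type lines in 36 members with the covariate, and in 41 without it. With each line left out, Psmc2 ranged over −0.20 to 0.0081 and Psme4 over −0.30 to 0.083. The cause was not tested. The litters of the other 4 lines were not used here, and the random block changed no call between heterozygous lines and either other genotype.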
